A study of Mus musculus with 7 samples.

Results

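The genes of the EGF receptor family and of its ligands were examined in sorted mouse mammary cells, to ask which epithelial layer of the adult gland held the transcripts of receptors and which those of ligands. The set was a list of 10 genes, the receptors Egfr, Erbb2, Erbb3 and Erbb4 and the ligands Areg, Hbegf, Nrg1, Tgfa, Btc and Ereg. A gene was represented by its probe set with the highest mean intensity among probe sets annotated to that symbol alone. By this rule 9 of the 10 were found among 17096 genes, and Areg, the amphiregulin gene, is not analysed here. Each value is a log2 intensity of a probe set, so a unit of 1 is a 2-fold difference. Probe sets differ in brightness, so levels were compared between arrays and not between genes.

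The EGF receptor and its relatives are receptor tyrosine kinases that signal as pairs. Ligands are made as membrane proteins and are cut loose by ADAM proteases. Amphiregulin, TGF-alpha, epigen and EGF bind the EGF receptor, and betacellulin, HB-EGF and epiregulin bind both the EGF receptor and Erbb4. The neuregulins bind Erbb3 or Erbb4, Erbb3 has a weak kinase of its own, and Erbb2 has no known ligand and acts as a partner of the others. In the mammary gland the family is known for its part in duct growth, in lactation and, through Erbb2, in tumours.

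The array study held 7 arrays of total RNA in 3 groups. Adult luminal cells (2 arrays) were YFP+ cells of K8CREERT2/RosaYFP mice and adult basal cells (2 arrays) were YFP+ cells of K5CREERT2/RosaYFP mice, each taken 8 weeks after tamoxifen. YFP thus marked cells in which keratin 8 or keratin 5 had driven Cre at the time of tamoxifen, and their descendants. The embryonic group (3 arrays of 2000, 2000 and 813 cells) was sorted as CD49fHi Lgr5Hi from Lgr5-IRES-GFP female embryos at day 14 of gestation, each array being a litter's females pooled. The adult arrays are marked as a reanalysis, their age is not stated, and the tissue field and protocols attached to them describe the embryonic preparation. The labels do not say whether the adult replicates are separate animals. The p-values then cover only the spread between these arrays, which may be technical.

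Between luminal and basal arrays, 1165 of 17096 genes (6.81%) changed, where a changed gene differed at least 2-fold and had an adjusted p under 0.05 (limma, Benjamini-Hochberg). The luminal side held 611 of them (3.57%) and the basal side 554 (3.24%). The count rested on single arrays and was 519 without luminal replicate 1. All 8 basal epithelial markers changed toward basal cells, with Krt5 at a mean of 12.09 in basal and 9.34 in luminal arrays. Of 8 luminal markers 4 changed toward luminal cells, while Krt8, the gene whose promoter drove the luminal label, stood at 11.04 and 10.64 and did not pass. A background level of 5.94 was taken from genes restricted to other organs, and a value under it is read as a bound on the level only.

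Of the 9 measured members, 3 changed: Erbb3 and Btc were higher in luminal cells and Nrg1 was higher in basal cells. The 3 other receptor genes passed the adjusted p and stayed under the 2-fold minimum, Erbb2 and Erbb4 higher in luminal and Egfr higher in basal cells. Thus all 4 receptor genes had an adjusted p under 0.05 in limma, as did 16.8% of all genes tested. Erbb4 did not in the fit with the replicate number as a block (limma adjusted p = 0.0530) or in the fit over all 7 arrays (0.200). The ligand genes Tgfa, Hbegf and Ereg did not pass. Luminal and basal arrays did not overlap in 8 of the 9 members, against 59.2% of all genes. The median difference, luminal minus basal, was 0.73 over the 4 receptors and -0.60 over the 5 ligands, with 0.02 over all genes. The ligand median is the value of Tgfa, which did not pass. The 2 changed ligand genes differed in direction (Btc 2.19, Nrg1 -1.55). Over the 5 other ligand genes described below, the median was 0.05. In bulk arrays, fewer cells of a type and less RNA per cell cannot be told apart.

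**Figure D1:**
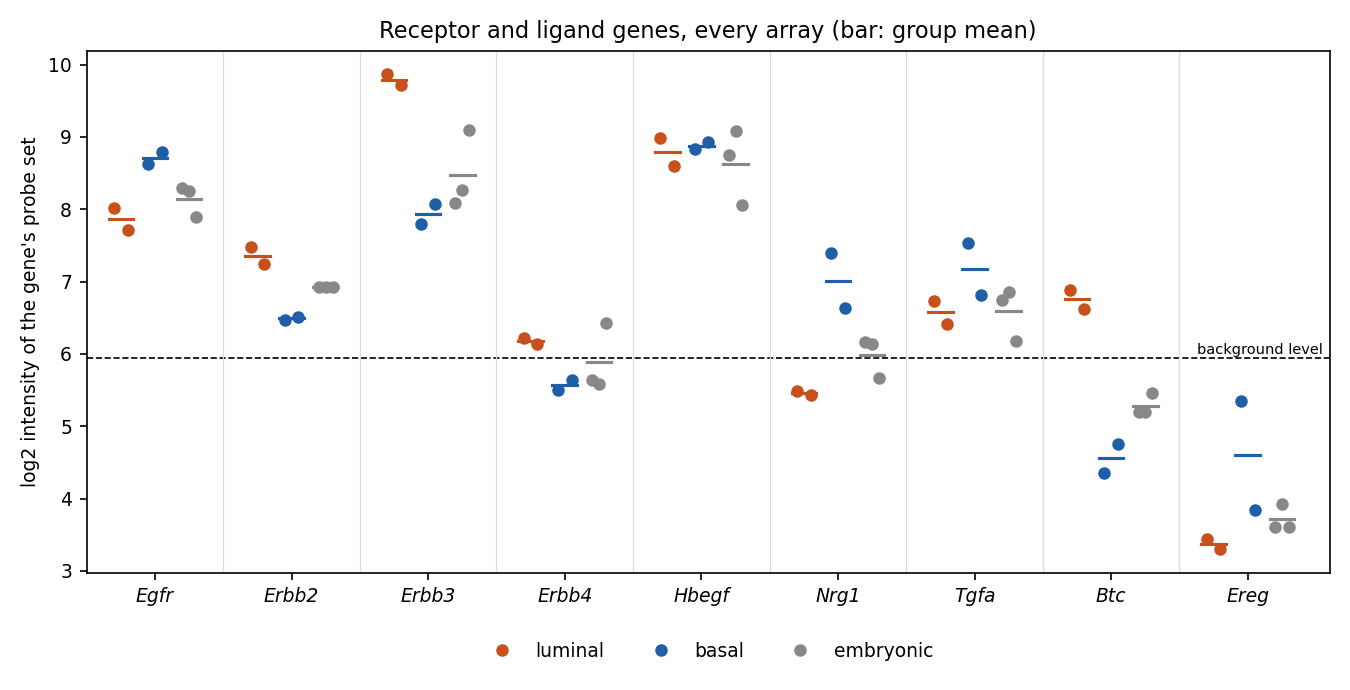
Log2 intensity (vertical axis) of the probe set of each measured member in every array, with points for arrays, short bars for group means and a dashed line at the background level of 5.94. Erbb3 and Btc sit higher in the luminal arrays, Nrg1 and Egfr higher in the basal arrays, and the luminal and basal points of Hbegf overlap.

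Erbb3, the neuregulin receptor that signals mainly through its partners, had the largest difference among the receptor genes. Its log2 intensity was 9.86 and 9.72 in the luminal arrays and 7.80 and 8.07 in the basal arrays. Both luminal arrays thus lay more than 1 log2 unit above both basal arrays. The difference was 1.85 ± 0.15 (SE, n = 2 and 2 arrays, 95% interval 1.49 to 2.22, limma adjusted p = 0.00331), a 3.62-fold higher level in luminal cells. Both probe sets of Erbb3 gave nearly the same difference, 1.85 and 1.84. With each array left out in turn it ran from 1.72 to 1.99 and stayed called, with adjusted p from 0.00189 to 0.0329 in limma.

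Erbb3 is also a gene of Schwann cells and melanocytes, so the markers of those cells were examined beside it. Of 5 measured markers of Schwann cells, melanocytes and neural crest none changed, and none had an unadjusted p under 0.05 in limma. Foxd3, Dct, Tyr and Mlana lay below background in both adult groups. Sox10, which mammary epithelium also expresses, stood at 8.14 in luminal and 8.38 in basal arrays. The summed intensity of the 5 was 318 and 372 in luminal and 333 and 469 in basal arrays, on the linear scale.

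Erbb2, the partner receptor without a known ligand, read 7.48 and 7.24 in luminal and 6.47 and 6.51 in basal arrays. The luminal arrays lay above the basal ones, by 0.87 ± 0.14 (SE, n = 2 and 2; 95% interval 0.53 to 1.20; limma adjusted p = 0.0145), which is 1.82-fold. Erbb4, a receptor for neuregulins and betacellulin linked to lactation, read 6.22 and 6.13 in luminal and 5.50 and 5.64 in basal arrays. Its difference was 0.60 ± 0.13 (95% interval 0.29 to 0.92; limma adjusted p = 0.0298), with both basal arrays below background. Since the basal level is a bound, luminal cells were at least 1.18-fold higher in Erbb4. The adjusted p of Erbb4 rose to at most 0.175 in limma when an array was left out, and that of Erbb2 to at most 0.0980.

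Egfr, the receptor of TGF-alpha and EGF, was the 1 receptor gene higher in basal cells. It read 8.02 and 7.72 in luminal and 8.63 and 8.80 in basal arrays, and the groups did not overlap. The difference was -0.85 ± 0.16 (SE, n = 2 and 2; 95% interval -1.23 to -0.46; limma adjusted p = 0.0209), 1.80-fold on the basal side and under the 2-fold minimum. Egfr has 6 probe sets. In 3 of them both groups were above background, with differences of -0.85, -0.91 and -0.73 and no overlap between the groups. The other 3 also read higher in basal arrays. Of these, 1 was below background in both groups, and 1 changed in a fit over all probe sets (-1.05, limma adjusted p = 0.0149) with luminal values below background, where the bound is at least 1.20-fold. Left-out arrays moved the Egfr difference between -0.997 and -0.69, with a limma adjusted p of at most 0.104.

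**Figure D2:**
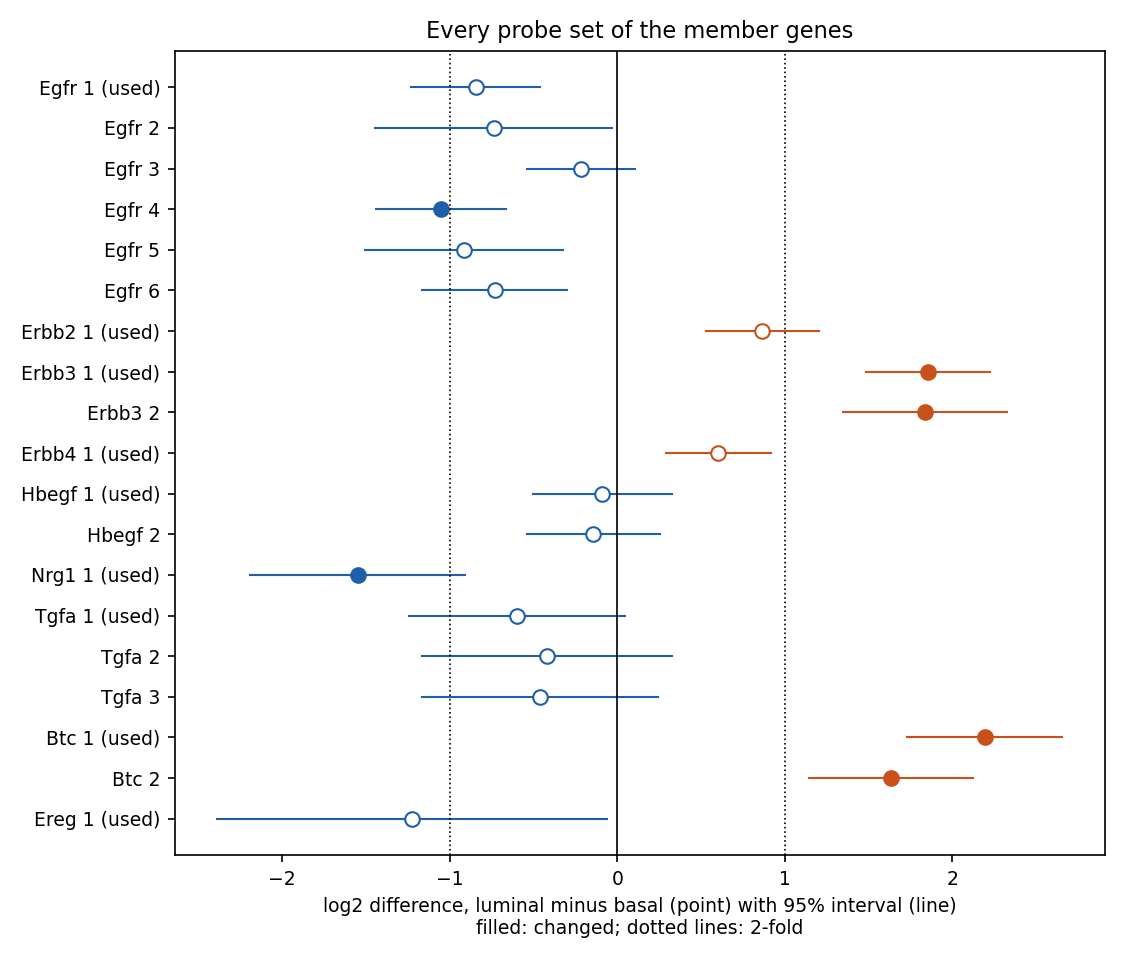
Log2 difference, luminal minus basal, of every probe set of the 9 measured members with its 95% interval, from a fit over all probe sets; filled points changed and dotted lines mark 2-fold. All 6 Egfr probe sets lie on the basal side, between -1.05 and -0.22, 3 of them with both groups above background, and both Erbb3 probe sets lie beyond 2-fold on the luminal side. Of the Btc points, 1 rests on basal values below background and the other is below background in both groups.

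Among the ligands, Btc, the betacellulin gene, was higher in luminal cells. Its log2 intensity was 6.89 and 6.62 in luminal and 4.36 and 4.76 in basal arrays. Only the luminal arrays exceeded background. The fitted difference was 2.19 ± 0.19 (SE, n = 2 and 2; 95% interval 1.73 to 2.65; limma adjusted p = 0.00344). Since the basal level is a bound, luminal cells were at least 1.76-fold higher. The other Btc probe set lay below background in all 4 adult arrays, so it gives no fold. With each array left out, the difference ran from 1.99 to 2.40 and stayed called (limma adjusted p at most 0.0329).

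Nrg1, which encodes the neuregulin that binds Erbb3 and Erbb4, was higher in basal cells. It read 5.49 and 5.44 in luminal arrays, both below background, and 7.40 and 6.63 in basal arrays. The basal arrays differed from each other by 0.77, and both exceeded the luminal ones. The difference was -1.55 ± 0.25 (SE, n = 2 and 2; 95% interval -2.18 to -0.92; limma adjusted p = 0.0160), and basal cells were at least 2.11-fold higher. The call was lost without luminal replicate 1 (-1.58, limma adjusted p = 0.0953) and without luminal replicate 2 (-1.52, 0.0837). It was also lost on the log2(intensity + 32) scale (-1.09, limma adjusted p = 0.0745). Nrg1 has 1 probe set here, and the gene has many isoforms.

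Markers of stromal cells also lay on the basal side. Among 7 fibroblast markers the basal mean exceeded the luminal mean in 6, though hardly in Col1a2 (-0.001) and Pdgfra (-0.09). Only 1 of the 6, Postn, changed. The marker outside these 6, Dcn, was bright and alike in the layers (0.05, limma adjusted p = 0.945). It read 10.43 and 9.67 in luminal and 9.79 and 10.21 in basal arrays. All 6 endothelial markers were higher in basal cells, 5 with an unadjusted p under 0.05 in limma, and none changed (limma adjusted p from 0.0561 for Pecam1 to 0.415 for Vwf). Pecam1 (-1.63) and Cdh5 (-1.58) did pass in the fit with the replicate number as a block (limma adjusted p = 0.0103 and 0.0199), among genes above background alone (0.0209 and 0.0336) and with a trended, robust prior (0.0280 and 0.0438). Pecam1 (-2.23) and Cdh5 (-2.31) also passed without luminal replicate 2, and Pecam1 without basal replicate 1 (limma adjusted p = 0.0314). Vwf was -1.01 and called without basal replicate 1, and 0.057 without basal replicate 2. The summed intensity of the fibroblast markers was 2453 and 3990 in luminal and 5683 and 6794 in basal arrays. That of the endothelial markers was 259 and 508 in luminal and 704 and 1196 in basal arrays. Col1a1, an abundant fibroblast transcript, read 8.58 and 10.41 in luminal and 10.81 and 10.93 in basal arrays, while Col1a2 and Pdgfra lay below background in both groups. Within each layer the fibroblast and endothelial sums were higher in replicate 2. None of 5 leukocyte markers changed, none at an unadjusted p under 0.05 in limma, with a summed intensity of 153 and 308 in luminal and 316 and 425 in basal arrays, and none of 3 adipocyte markers (2 by unadjusted p), at 85 and 193 and at 243 and 335. Fabp4, an adipocyte and endothelial gene, was called in the block fit (-1.31, limma adjusted p = 0.0329) and without luminal replicate 2 (-2.02, 0.0333). Col1a1 was called without luminal replicate 2 (-2.29, limma adjusted p = 0.0172). The part of such cells in the Nrg1 difference, or in any other difference on the basal side such as that of Egfr, was not tested.

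Tgfa, the gene of TGF-alpha, read 6.74 and 6.42 in luminal and 7.53 and 6.82 in basal arrays. The basal arrays were the higher ones, but they spread over 0.71. Luminal minus basal was -0.60 ± 0.26 (SE, n = 2 and 2; 95% interval -1.23 to 0.04; limma adjusted p = 0.182), which missed the threshold, and all 3 probe sets had negative differences, from -0.60 to -0.42. Without basal replicate 2 it was -0.95 (limma adjusted p = 0.0183), under 2-fold. Hbegf, the gene of HB-EGF, read 8.99 and 8.59 in luminal and 8.83 and 8.93 in basal arrays, which overlap. Its difference of -0.09 ± 0.17 had a 95% interval of -0.50 to 0.32 (limma adjusted p = 0.790). Hbegf transcripts were therefore above background in both layers, and a difference of 2-fold lies outside that interval.

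Ereg, the epiregulin gene, read 3.44 and 3.30 in luminal and 5.35 and 3.84 in basal arrays. All 4 values lay below background, so no fold is given. At -1.23 ± 0.46 it missed the threshold (limma adjusted p = 0.135). It came mainly from basal replicate 1: without basal replicate 2 the difference was -1.98 and called (limma adjusted p = 0.0019), and without basal replicate 1 it was -0.47. Nrg1, Tgfa and Ereg were all higher in basal replicate 1 than in replicate 2.

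The remaining ligand genes of the family were examined as a list beside the members. Of Egf, Epgn, Nrg2, Nrg3 and Nrg4, 2 changed on the luminal side, Epgn above background in luminal cells and Nrg4 below it in both groups. Epgn, the epigen gene, read 7.56 and 6.98 in luminal and 5.90 and 5.26 in basal arrays, a difference of 1.69 ± 0.28 (limma adjusted p = 0.0166) and at least 2.52-fold against background. Its call was lost without luminal replicate 1 (1.39, limma adjusted p = 0.0928). Nrg4, a neuregulin gene whose product binds Erbb4, read 5.56 and 5.67 in luminal and 4.33 and 4.24 in basal arrays. It passed the test at 1.33 ± 0.12 (limma adjusted p = 0.00425) with both groups below background, so no fold is given. Egf (0.04), Nrg2 (0.05) and Nrg3 (-0.18) did not pass, and Egf and Nrg3 lay below background in both groups.

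**Figure D3:**
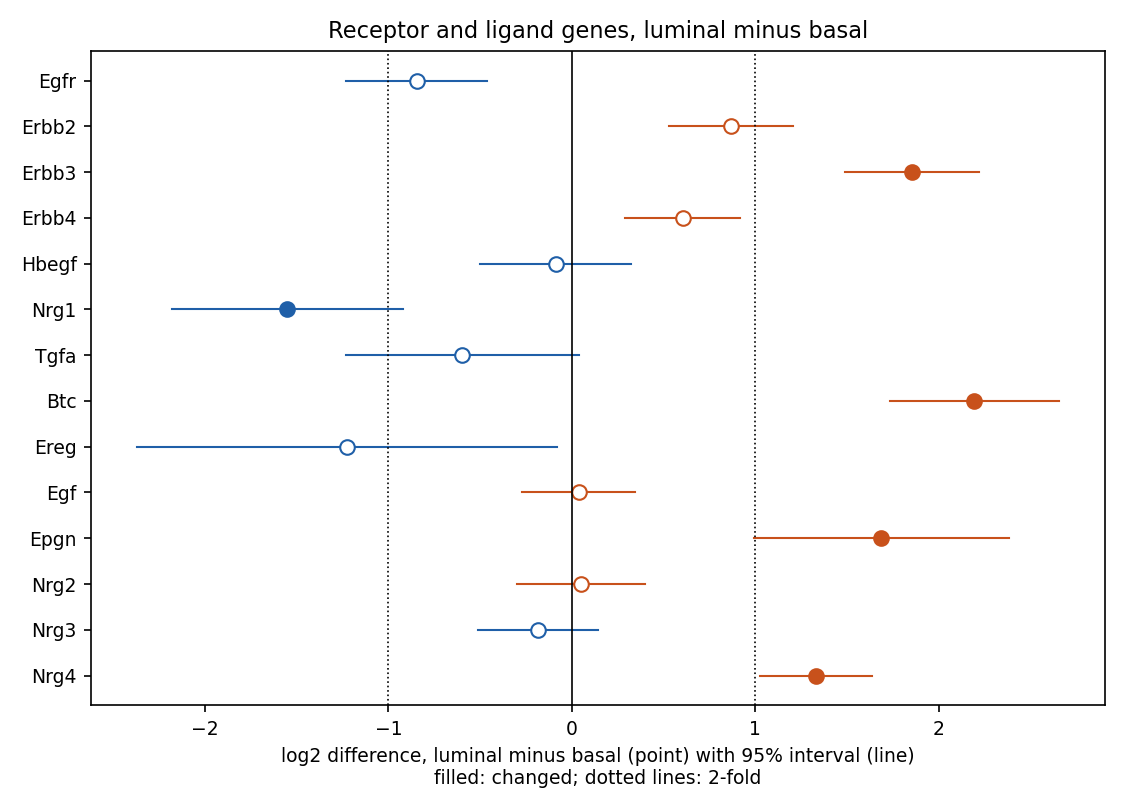
Log2 difference, luminal minus basal, with its 95% interval for the 9 measured members and the 5 other ligand genes; filled points changed and dotted lines mark 2-fold. Erbb3, Btc, Epgn and Nrg4 are filled on the luminal side and Nrg1 is filled on the basal side.

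In the RefSeq gene table Epgn, Ereg, Areg and Btc follow each other as protein-coding genes on mouse chromosome 5. Of these neighbours Epgn and Btc, the outer genes, were higher in luminal cells, while the Ereg probe set lay below background in both layers. The promoters of Btc, Epgn and Nrg4 are shown because these are the ligand genes that passed the test on the luminal side, Nrg4 with both groups below background. Each window runs from 250 bases before to 50 bases after the annotated start (RefSeq, GRCm38.p6), read 5′ to 3′ on the gene's strand. Capitals mark matches, on either strand, to any of 8 motifs searched. These were AP-1 (TGANTCA), FOXA (TGTTTAC), the site of GATA factors (AGATAA), the E-box (CACGTG) and the GC box (GGGCGG). The others were the TATA box (TATAAA), a half-site of the oestrogen response element (AGGTCA) and CRE (TGACGTCA). The Btc window is chr5:91402945-91403244, minus strand, the Epgn window chr5:91027267-91027566, plus strand, and the Nrg4 window chr9:55283576-55283875, minus strand.
Btc: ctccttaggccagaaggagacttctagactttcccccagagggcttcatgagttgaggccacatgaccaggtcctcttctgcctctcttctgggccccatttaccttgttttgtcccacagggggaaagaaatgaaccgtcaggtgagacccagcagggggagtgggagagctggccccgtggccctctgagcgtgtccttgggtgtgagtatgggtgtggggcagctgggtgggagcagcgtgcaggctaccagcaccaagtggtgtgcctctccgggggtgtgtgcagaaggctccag
Epgn: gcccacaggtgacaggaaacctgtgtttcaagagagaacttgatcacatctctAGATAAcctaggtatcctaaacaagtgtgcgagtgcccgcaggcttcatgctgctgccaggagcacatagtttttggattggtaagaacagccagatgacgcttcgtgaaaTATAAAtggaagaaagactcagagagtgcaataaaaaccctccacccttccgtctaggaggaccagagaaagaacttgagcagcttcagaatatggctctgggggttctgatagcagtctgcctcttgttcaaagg
Nrg4: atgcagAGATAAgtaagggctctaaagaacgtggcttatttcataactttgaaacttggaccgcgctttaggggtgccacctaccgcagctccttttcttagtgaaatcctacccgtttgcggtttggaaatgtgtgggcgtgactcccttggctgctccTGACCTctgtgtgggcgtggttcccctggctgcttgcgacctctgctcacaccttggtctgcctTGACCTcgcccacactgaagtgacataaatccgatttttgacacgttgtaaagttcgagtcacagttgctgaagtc

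The windows had little in common in these motifs. The Btc window held none of the 8, which says only that these letters are not in it. The Epgn window held 1 GATA match, found in 11.2% of all 32851 promoter windows, and 1 TATA box match, found in 13.6%. The Nrg4 window held 1 GATA match and 2 matches to the AGGTCA half-site on the opposite strand, a motif found in 16.3% of windows. The other shares were 7.81% for AP-1, 3.65% for FOXA, 7.15% for the E-box, 35.7% for the GC box and 1.79% for CRE. The GC content was 60.3% for Btc, 47.3% for Epgn and 51.0% for Nrg4. A match is a description of the letters and no evidence of binding.

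The other pathway genes were counted by role. Of 58 measured in all, including the 5 ligands above, 10 changed, 6 higher in luminal and 4 higher in basal cells. With a background of 6.81% of all genes, nothing particular to the pathway is read from this count, and the median difference of the 58 was -0.01.

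Of 6 measured genes that release or hold ligands, 2 changed, 1 in each direction. Adam10, a protease that sheds EGF and betacellulin, was higher in luminal cells, at 10.15 and 10.01 against 8.72 and 8.76 in basal arrays (1.34 ± 0.12, limma adjusted p = 0.0042). Timp3, an inhibitor of these proteases, was higher in basal cells, at 9.83 and 9.91 against 8.30 and 8.12 in luminal arrays (-1.66 ± 0.13, limma adjusted p = 0.0032). Neither pair of groups overlapped. Adam17, the main protease for TGF-alpha, HB-EGF and amphiregulin, had 0.49 and Rhbdf1, which helps its transport, 0.30, and neither passed. In the fit over all 7 arrays Adam10 did not pass (limma adjusted p = 0.0963).

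Among 14 genes that restrain the receptors or their turnover, 3 changed, 1 toward luminal and 2 toward basal cells. Cblb, a ubiquitin ligase that marks active receptors for breakdown, was higher in basal cells (9.07 and 8.77 against 7.77 and 7.63 in luminal arrays; -1.22 ± 0.15, limma adjusted p = 0.0084). Lrig3, of a family of membrane proteins that act on these receptors, was also higher in basal cells (6.81 and 7.97 against 5.59 and 5.66; -1.76 ± 0.36, limma adjusted p = 0.0278), at least 2.74-fold against background. Cblc, a relative of Cblb in epithelia, was higher in luminal cells (8.20 and 8.30 against 6.47 and 7.33; 1.35 ± 0.28, limma adjusted p = 0.0298). Cblb and Cblc, of the same family, thus differed in direction. All 3 calls were lost without luminal replicate 1 (-1.29, -1.73 and 1.40) and without luminal replicate 2 (-1.15, -1.80 and 1.30), and Cblc also without basal replicate 1 (0.92).

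Lrig1, an inhibitor that lowers receptor levels, had -0.96 ± 0.18 (limma adjusted p = 0.0215), just under the 2-fold minimum. It passed without luminal replicate 1 (-1.17), without basal replicate 2 (-1.02) and after a further quantile normalization (-1.02). Lrig2 had 0.04, with both groups below background. Spry2, a feedback inhibitor named after its value was seen, had -0.78 ± 0.12 (limma adjusted p = 0.0139), also under 2-fold. In the fit over all 7 arrays the adjusted p was 0.0523 for Lrig1 and 0.111 for Spry2 (limma). Of the 14, 9 were higher in basal cells, without regard to the test.

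Of 4 membrane partners, Muc1, a mucin that associates with these receptors, was higher in luminal cells (8.95 and 8.40 against 7.36 and 7.72; 1.14 ± 0.23, limma adjusted p = 0.0255). Its call was lost without luminal replicate 1 (0.86), without basal replicate 1 (0.96) and in the fit over all 7 arrays (limma adjusted p = 0.0660). Muc4, a ligand-like partner of Erbb2, lay below background in both groups (0.56), and Cd44 had -0.52 and did not pass.

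None of the 18 measured adaptor and kinase genes changed, and their differences ran from -0.47 to 0.90. Grb2 and Shc1, the adaptors that link receptors to RAS, had -0.27 and 0.05. Stat5a, a transcription factor of milk secretion named after its value was seen, had 0.77 ± 0.14 (limma adjusted p = 0.0197), under 2-fold. In limma 1 of the 18 had an adjusted p under 0.05 and 6 an unadjusted one.

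Of 11 target and feedback genes 2 changed, in opposite directions. Ccnd1, which encodes cyclin D1, read 10.46 and 10.64 in luminal against 9.40 and 9.39 in basal arrays (1.16 ± 0.13, limma adjusted p = 0.0062). Dusp6, a phosphatase induced by ERK signalling that restrains it, was higher in basal cells at 7.99 and 7.91 against 6.89 and 6.93 (-1.04 ± 0.12, limma adjusted p = 0.0067). Dusp6 lay close to the 2-fold minimum and was lost without luminal replicate 1 (-1.03, limma adjusted p = 0.0584) and without basal replicate 1 (-0.998). Egr1 (-0.36) and Fos (-0.65), immediate early genes that also respond to cell dissociation, did not pass. Myc, named after its value was seen, had -0.61 ± 0.12 (limma adjusted p = 0.0243, and 0.0533 over all 7 arrays), under 2-fold.

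**Figure D4:**
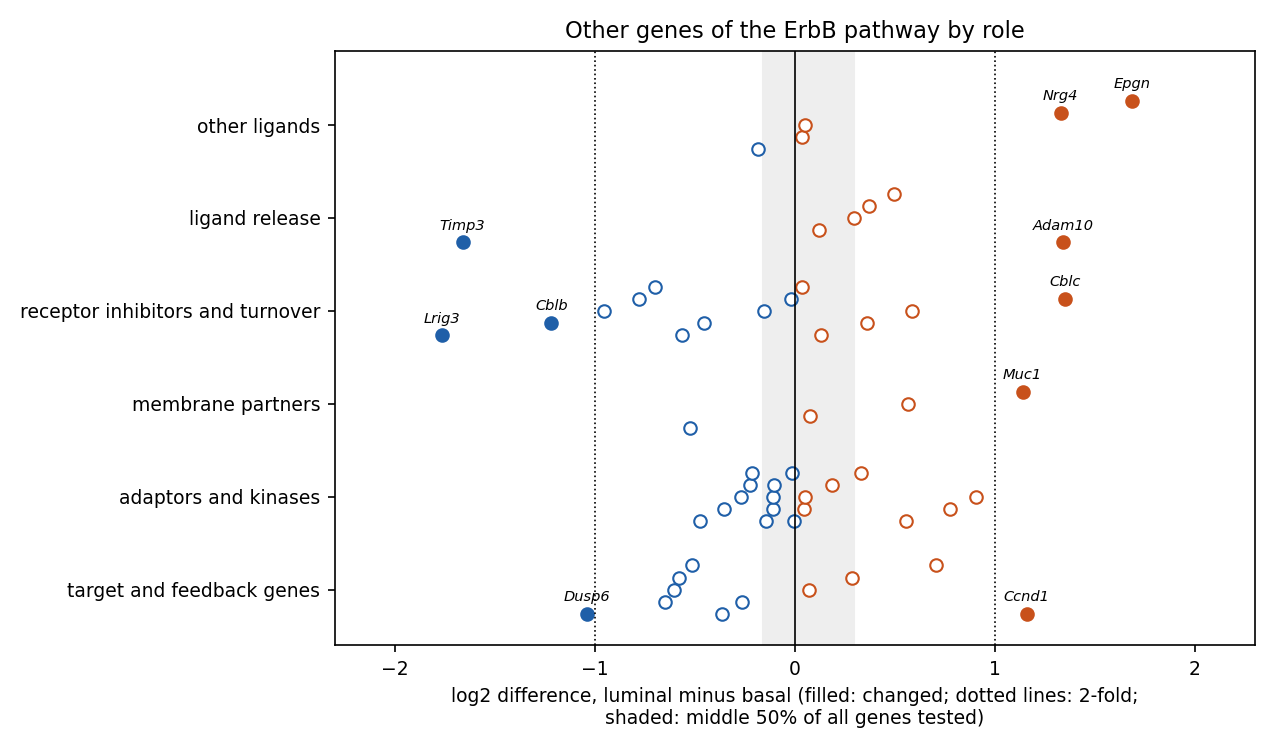
Log2 difference, luminal minus basal, of 58 other ErbB pathway genes by role; filled and named points changed, dotted lines mark 2-fold and the shaded band holds the interquartile range of all genes tested. Filled points lie on both sides in the release, inhibitor and target groups, and none is filled among adaptors and kinases.

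Luminal cells are a mixture, and markers of its parts were, like Erbb3 and Btc, higher in luminal than in basal arrays. All 5 measured markers of hormone receptor positive cells changed toward luminal cells, with the oestrogen receptor gene Esr1 at 1.40 ± 0.19 and the progesterone receptor gene Pgr at 1.88 ± 0.18. The Esr1 call was lost without luminal replicate 1 (1.33, limma adjusted p = 0.0731) and without luminal replicate 2 (1.48, 0.0515). Of 6 progenitor and alveolar markers 3 changed toward luminal cells, among them Elf5 (1.68 ± 0.15) and Kit (1.40 ± 0.13), the latter below background in both groups. The summed intensity of the hormone receptor positive markers was 2946 and 2922 in luminal and 755 and 993 in basal arrays. In which luminal cells the ErbB genes were transcribed was not tested.

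All 9 measured members were lower in luminal replicate 2 than in replicate 1, by 0.05 to 0.39, against 52.6% of all genes. In the basal layer 6 of the 9 were higher in replicate 2. The share over all genes was not computed for the basal arrays, so nothing particular to the members is read from this count.

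The genes whose centred profile over the 4 adult arrays lay nearest to each changed member were listed as a description, out of 7734 or 7735 genes above background. For Erbb3 these were Tmprss13 (root mean square distance 0.04 log2 units), Bspry (0.06) and Gipc2 (0.06). For Btc they were Mboat1 (0.10), Nectin4 (0.13) and Lmo7 (0.15). For Nrg1 they were the non-coding RNAs Kcnq1ot1 (0.05) and Mirg (0.10), and the cytokine gene Il24 (0.11). With 4 arrays of 2 groups, nearness mostly means a like difference between the layers.

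In the 3 embryonic arrays Erbb3 read 8.08, 8.27 and 9.09, and Egfr read 8.29, 8.25 and 7.89. Btc read 5.19, 5.19 and 5.46, and Nrg1 read 6.16, 6.14 and 5.66. The background level came from the adult arrays and may not hold for these, so no embryonic value is called below it. Hbegf read 8.75, 9.08 and 8.06, and Tgfa 6.75, 6.86 and 6.18. Erbb4 read 5.64, 5.59 and 6.42, and Ereg read 3.61, 3.93 and 3.61. Erbb2 read 6.92 in all 3 arrays, between its adult means of 7.36 (luminal) and 6.49 (basal). Erbb2 and Btc held identical values in replicates 1 and 2, and Ereg in replicates 1 and 3. The embryonic arrays were known to hold many tied values near the adult mean. An embryonic value between the adult layers is therefore not read as an intermediate level. Embryonic and adult values in this table may not share a scale, so no embryonic level was tested against an adult one.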

How the data were processed

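Per the labels' protocols, which describe the embryonic preparation, sorted-cell RNA underwent whole transcriptome amplification before hybridisation to Affymetrix arrays. The adult arrays carry the same protocols, so how their RNA was amplified is not known. The authors deposited an intensity for each probe set and array, which the values show to be linear, in 7 columns. RMA and affy are named in the submitters' processing notes; settings and any adjustment between embryonic and adult arrays are not given in the sources used here.

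Log2 was taken of the intensity, although the design had assumed it might already be log2. Of 45141 rows, 4 without values and 104 controls were left out. Of the remaining 45033 probe sets the platform annotation gave 1 symbol for 28895, several for 551 and none for 15587, the last unnamed here. For the background level, 132 probe sets of 96 genes of other organs were averaged over the adult arrays and their 95th percentile was taken. A bound on a fold set the brighter group's mean against this level.

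Limma 3.58.1 (R 4.3.3) fitted luminal and basal means to the 4 adult arrays with eBayes (2 residual and 3.73 prior degrees of freedom), with Benjamini-Hochberg adjustment over 17096 genes. The embryonic arrays, known to hold many tied values near the adult mean, were left out of the fit. The fit was tested on simulated data. Named were all members, the other ligands, per pathway list up to 4 changed genes per direction and 2 that did not pass, the first 2 measured markers per list, further markers beside a result they touch, and the 3 nearest profiles. The members and lists were chosen with earlier results of these data known. Alternatives covered the arrays fitted, probe sets, dim genes, normalization, offset, prior, fold minimum, replicate block and each array left out. Figures used matplotlib 3.10.9 (Python 3.11.15).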

Additional observations from a re-analysis of the deposited data

How the results depend on the processing

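Over 13 alternatives, and each further probe set of a member, the direction of the members held in all values but 1: Hbegf, which never passed, ran from -0.28 to 0.11 with single arrays left out. Part of this was fixed in advance. The fit over all 7 arrays, the background filter, the prior, the fold minimum and the replicate block cannot move a difference. They bear only on whether a gene is called. The mean of probe sets moves only genes with several. The count of changed genes was 1165; it was 505 on the log2(intensity + 32) scale, 2603 with a 1.5-fold minimum, 2879 with no fold minimum and 519 to 1443 with an array left out. The count of changed members was 3; it was 6 with a 1.5-fold minimum and 6 with none, Egfr, Erbb2 and Erbb4 being added, and 2 to 4 with an array left out. Among genes above background alone it was 2, because Btc, whose mean lies below it, was not tested. The count of changed pathway genes was 10, with 4 on the log2(intensity + 32) scale, where Cblc, Dusp6, Epgn, Lrig3, Muc1 and Nrg4 were lost, and 5 to 12 with an array left out. The fit over all 7 arrays called 939 genes, including the same 3 members, and 8 pathway genes.

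With the replicate number as a block 1208 genes, the same 3 members and the same 10 pathway genes were called, with the marker genes Pecam1, Cdh5 and Fabp4 added; the numbers share no stated animal or day, and the differences of replicate 2 minus 1 in luminal and basal arrays had a correlation of 0.08 over genes. Small differences that did not pass changed sign with single arrays left out: Egf (-0.040 to 0.11), Nrg2 (-0.071 to 0.17), Lrig2 (-0.13 to 0.20), Shc1 (-0.0094 to 0.11, and -0.000585 after quantile normalization), Col1a2 (-0.19 to 0.19), Ptprc (-0.31 to 0.14), Sox10 (-0.55 to 0.063), Foxd3 (-0.049 to 0.098), Vwf (-1.01 to 0.057), Pdgfra (-0.25 to 0.077), Dct (-0.043 to 0.29), Mlana (-0.095 to 0.11) and Tyr (-0.17 to 0.23, and -0.030 for the mean of its probe sets). A fit with an array left out keeps 1 array in a group, which is assumed to vary like the other group. Signal near background limits Btc, Erbb4 and Epgn in basal, Nrg1 and Lrig3 in luminal, and Ereg and Nrg4 in both groups.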
